A study of Mus musculus with 6 samples.

Results

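Prdx1 lies on chromosome 4, and the genes described here are its protein-coding neighbours on that chromosome. They are the genes that start between positions 114700000 and 118200000, a window of 3.5 Mb, leaving out Prdx1 itself, Uqcrh and the genes whose names begin with Cyp4 or Cyp2. The window held 93 genes, 67 of them typed as protein-coding in the deposited table, and 57 of the 28601 genes in that table met the rule. Stil also starts in the window but does not carry that type in the table, so it is not among them. The rule used position and gene type only, and no expression value. Liver RNA was sequenced from 6 male mice, 3 of them wild type (WT) and 3 carrying the PRDX1 Cys52Ser mutation, in which cysteine 52 is replaced by serine. All 6 mice were 8 weeks old when they were put on CDAHFD, a high-fat diet that lacks choline and has amino acids as its protein source, for 8 weeks, so the WT mice received the diet as well. The treatment field of the labels counts up from 8 to 10 weeks over the WT mice and from 11 to 13 weeks over the Cys52Ser mice. The titles and the design text give 8 weeks throughout, and 8 weeks is used here. The mouse strain, the way the mutation was made and the zygosity of the mice are not given in the sources used here.

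PRDX1 is a cytosolic peroxiredoxin that reduces hydrogen peroxide, and cysteine 52 is the residue that reacts with the peroxide. Neighbouring genes on a chromosome are usually inherited together, so an engineered allele is passed on with the DNA on either side of it, and adjacent genes can also share promoter regions and overlap in their transcripts. The comparison asked whether the genes next to the mutated one changed more than genes elsewhere. The window holds genes of many unrelated functions, among them enzymes of vitamin B12, haem and aldehyde metabolism, DNA repair proteins and protein kinases.

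Of the 57 neighbours, 51 had enough reads to be tested, and 3 of these 51 (5.88%) differed between the genotypes. Tesk2, a kinase of the actin regulator cofilin and one of the closest genes to Prdx1, rose 2.24-fold in Cys52Ser liver. Faah, the hydrolase that degrades anandamide and related fatty acid amides, rose 1.52-fold (2.52% of all tested genes were called higher). Pdzk1ip1, which encodes a small membrane protein that binds the scaffold protein PDZK1, fell, with a level 3.28-fold lower (2.46% of all tested genes were called lower). The test was edgeR's quasi-likelihood test with Benjamini-Hochberg adjustment over all 18648 genes tested and a threshold of 0.05 on the adjusted p-value. Over all tested genes 4.98% were called, over the 15287 tested protein-coding genes 5.76%, and over the 899 tested protein-coding genes of the rest of chromosome 4 5.56%. The share among the neighbours was thus close to the background in each of these sets. The rest of chromosome 4 means all its tested protein-coding genes that are not neighbours by the rule. It therefore includes Prdx1, Uqcrh and the tested Cyp4 genes of the window, of which Cyp4a32 was called higher.

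The promoters of the 3 called genes, of Prdx1 and of the gene nearest to it show what kind of start site each has. The sequences are RefSeq promoters on assembly GRCm38.p6, from 250 bases before to 50 bases after the annotated start, written 5′ to 3′ on the gene's own strand. Capitals mark 3 motifs searched on both strands: CCAAT, the GC box GGGCGG, and TGACNNNGC, the core of the antioxidant response element.
Prdx1, chr4:116685349-116685648, plus strand: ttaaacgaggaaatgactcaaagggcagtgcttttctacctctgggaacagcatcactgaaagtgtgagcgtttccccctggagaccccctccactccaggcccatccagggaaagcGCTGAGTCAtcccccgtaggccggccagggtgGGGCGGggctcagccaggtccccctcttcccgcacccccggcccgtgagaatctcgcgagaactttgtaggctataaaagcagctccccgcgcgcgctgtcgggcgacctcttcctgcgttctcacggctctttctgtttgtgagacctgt
Mmachc, chr4:116708336-116708635, minus strand: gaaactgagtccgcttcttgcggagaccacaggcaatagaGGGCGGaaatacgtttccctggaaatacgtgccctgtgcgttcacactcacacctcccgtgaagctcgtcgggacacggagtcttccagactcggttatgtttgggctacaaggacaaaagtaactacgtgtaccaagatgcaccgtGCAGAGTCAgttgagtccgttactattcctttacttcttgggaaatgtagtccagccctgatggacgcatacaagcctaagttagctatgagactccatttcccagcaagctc
Tesk2, chr4:116720705-116721004, plus strand: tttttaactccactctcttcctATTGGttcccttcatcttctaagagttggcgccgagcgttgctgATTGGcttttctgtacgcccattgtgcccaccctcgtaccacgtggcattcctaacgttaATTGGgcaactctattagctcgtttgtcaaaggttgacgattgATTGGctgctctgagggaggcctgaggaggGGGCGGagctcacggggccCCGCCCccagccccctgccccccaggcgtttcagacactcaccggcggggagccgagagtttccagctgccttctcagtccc
Faah, chr4:116017875-116018174, minus strand: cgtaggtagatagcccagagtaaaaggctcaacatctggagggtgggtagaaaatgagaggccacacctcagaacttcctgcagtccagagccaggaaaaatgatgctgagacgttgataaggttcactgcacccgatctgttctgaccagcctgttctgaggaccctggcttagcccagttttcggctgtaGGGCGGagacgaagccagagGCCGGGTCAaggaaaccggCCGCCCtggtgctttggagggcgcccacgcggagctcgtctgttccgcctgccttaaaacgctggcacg
Pdzk1ip1, chr4:115088458-115088757, plus strand: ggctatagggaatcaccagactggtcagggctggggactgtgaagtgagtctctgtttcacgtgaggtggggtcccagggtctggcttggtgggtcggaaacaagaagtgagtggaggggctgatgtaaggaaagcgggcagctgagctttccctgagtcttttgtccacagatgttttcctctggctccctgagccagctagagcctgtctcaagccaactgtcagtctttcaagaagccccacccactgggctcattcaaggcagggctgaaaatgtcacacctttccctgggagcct
The Prdx1 and Mmachc promoters each held 1 GC box and 1 match to TGACNNNGC. That of Prdx1 also held 1 TATA box, TATAAA, which is not marked in capitals. The Tesk2 promoter held 4 CCAAT matches and 2 GC boxes, and its GC content was 57.7%. Among all 32851 promoters listed there, 349 (1.06%) held 4 or more CCAAT matches, and among the 67 promoters listed for 52 of the neighbours 2 did. The Faah promoter held 2 GC boxes and 1 match to TGACNNNGC, a core that 12.4% of all promoters and 20.9% of the neighbours' promoters contained. These shares count promoters, not genes. Nsun4, Rad54l and Slc6a9 each enter the 20.9% with more than 1 promoter. The overlapping Rad54l promoters hold the same match, as do those of Mmachc and Ccdc163. The Pdzk1ip1 promoter held none of the 3 motifs and 3 CpG dinucleotides, against 16 in the Tesk2 promoter and 19 in that of Prdx1. A GC box was present in 64.2% of the neighbours' promoters and in 35.7% of all promoters, CCAAT in 37.3% and 37.4%, and the TATA box TATAAA in 2.99% and 13.6%. These matches describe letters only.

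Prdx1 itself (ENSMUSG00000028691, chr4:116685544-116700822, plus strand) was read first. Levels of single genes are given as CPM, counts per 1000000 counts of the library, scaled for library composition by the trimmed mean of M-values (TMM). Prdx1 stood at 864, 920 and 978 CPM in WT and at 859, 661 and 819 CPM in Cys52Ser. Every Cys52Ser library was below every WT library, by a narrow margin for Cys52Ser replicate 1. The mean was 920 ± 57.2 CPM in WT and 780 ± 105 CPM in the mutants (SD, n = 3 each), a log2 fold change of -0.24 (95% confidence interval -0.60 to 0.12). The difference did not pass the test (edgeR quasi-likelihood, adjusted p = 0.421; exact two-sided permutation p = 0.1, the smallest that 3 against 3 libraries allow). With library totals in place of TMM the log2 fold change was -0.59 and the adjusted p 0.0188, so the call on Prdx1 depends on the scaling. A gene-level count does not read the substituted codon and therefore does not check the genotype.

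Scaling matters in the same way for every gene described here. TMM factors ran from 1.05 to 1.21 in WT and from 0.814 to 0.963 in Cys52Ser. With library totals alone the median log2 fold change over all tested genes moved from -0.00 to -0.35, and that of the neighbours from 0.04 to -0.31. Under that scaling 7 neighbours were called, 1 higher (Tesk2) and 6 lower, among them Akr1a1, Atp6v0b, Gpbp1l1, Mknk1 and Pdzk1ip1, which was 13.7% beside a background of 16.2%. Library totals ranged from 53318196 to 73900923 counts. Marker lists moved with genotype as well: 2 of 10 hepatocyte genes rose and none fell, 3 of 10 endothelial genes rose and none fell, and 5 of 10 stellate cell genes and 4 of 10 macrophage genes fell and none rose. Summed hepatocyte markers stood at 40829 to 72216 CPM in WT and 110064 to 135914 CPM in Cys52Ser, stellate cell markers at 1482 to 2607 and 878 to 1105 CPM, and macrophage markers at 2030 to 3378 and 873 to 1104 CPM. Endothelial markers summed to 383 to 447 CPM in WT and 452 to 565 CPM in Cys52Ser. Of 9 tested lymphocyte and other haematopoietic markers 8 had a positive log2 fold change and 1 was called lower, with a median of 0.45. Their sums overlapped, at 125 to 160 and 140 to 167 CPM. None of these markers was at 0 in all libraries. In whole liver, fewer cells of a type and less RNA per cell cannot be told apart.

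**Figure D1:**
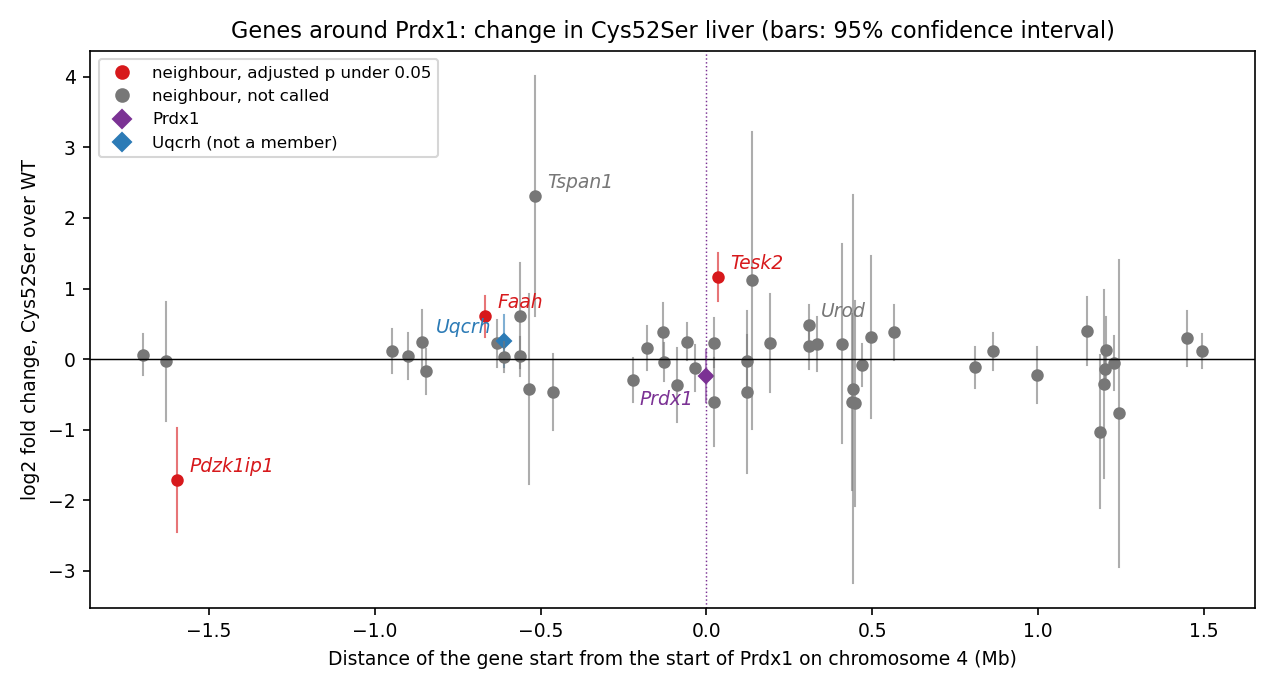
Log2 fold change (Cys52Ser over WT) of the 51 tested neighbours, Prdx1 and Uqcrh, on the vertical axis, against the distance of each gene's start from that of Prdx1 in Mb, on the horizontal axis. Bars are 95% confidence intervals, red points are the 3 called neighbours, and most grey points near Prdx1 have intervals that include 0.

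Tesk2 (ENSMUSG00000033985, chr4:116720948-116805956, plus strand) begins 20.1 kb beyond the end of Prdx1 and runs in the same direction. Its level was 10.7, 9.09 and 11.2 CPM in WT and 21.1, 21.6 and 26.8 CPM in Cys52Ser. The lowest Cys52Ser library was above the highest WT library by nearly the whole WT level, and the groups did not overlap. The means were 10.4 ± 1.11 and 23.2 ± 3.12 CPM (SD, n = 3 each). This was a log2 fold change of 1.16 (SE 0.15, 95% confidence interval 0.82 to 1.51), with an edgeR adjusted p of 0.0169 and rank 81 of 18648 by p-value. Its exact permutation p was 0.1, the smallest possible here.

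On the length-scaled FPKM (fragments scaled for gene length and library size) Tesk2 rose from 2.41 to 4.23. With library totals alone its log2 fold change was 0.81 (adjusted p = 0.0195), where the all-gene median was -0.35. The call was made in 15 of 18 alternative fits. It was lost without WT replicate 2 (1.03, adjusted p = 0.0561), without Cys52Ser replicate 1 (1.23, adjusted p = 0.0607) and without Cys52Ser replicate 3 (1.05, adjusted p = 0.0660), while few genes passed in any of those 3 fits (0.295%, 0.161% and 0.145% of all tested).

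The Tesk2 locus is crowded. In the GENCODE M21 annotation 1212 of its 4272 exon bases (28.4%) are also exon of Toe1, which is read from the opposite strand, and 405 (9.48%) are also exon of Ccdc163 on the same strand. The library kit marks strand, but no source used here says whether the counting used it, and reads in the shared bases cannot be assigned with certainty. Neither overlapping gene rose with Tesk2. Toe1, an exonuclease that trims small nuclear RNA ends, had a log2 fold change of -0.03 (95% confidence interval -0.39 to 0.34, edgeR adjusted p = 0.948). Ccdc163, a coiled-coil gene, had 7.25, 5.46 and 7.94 CPM in WT and 5.61, 4.73 and 3.16 CPM in Cys52Ser. Its groups overlapped slightly, and its log2 fold change was -0.61 (-1.24 to 0.01, edgeR adjusted p = 0.232).

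**Figure D2:**
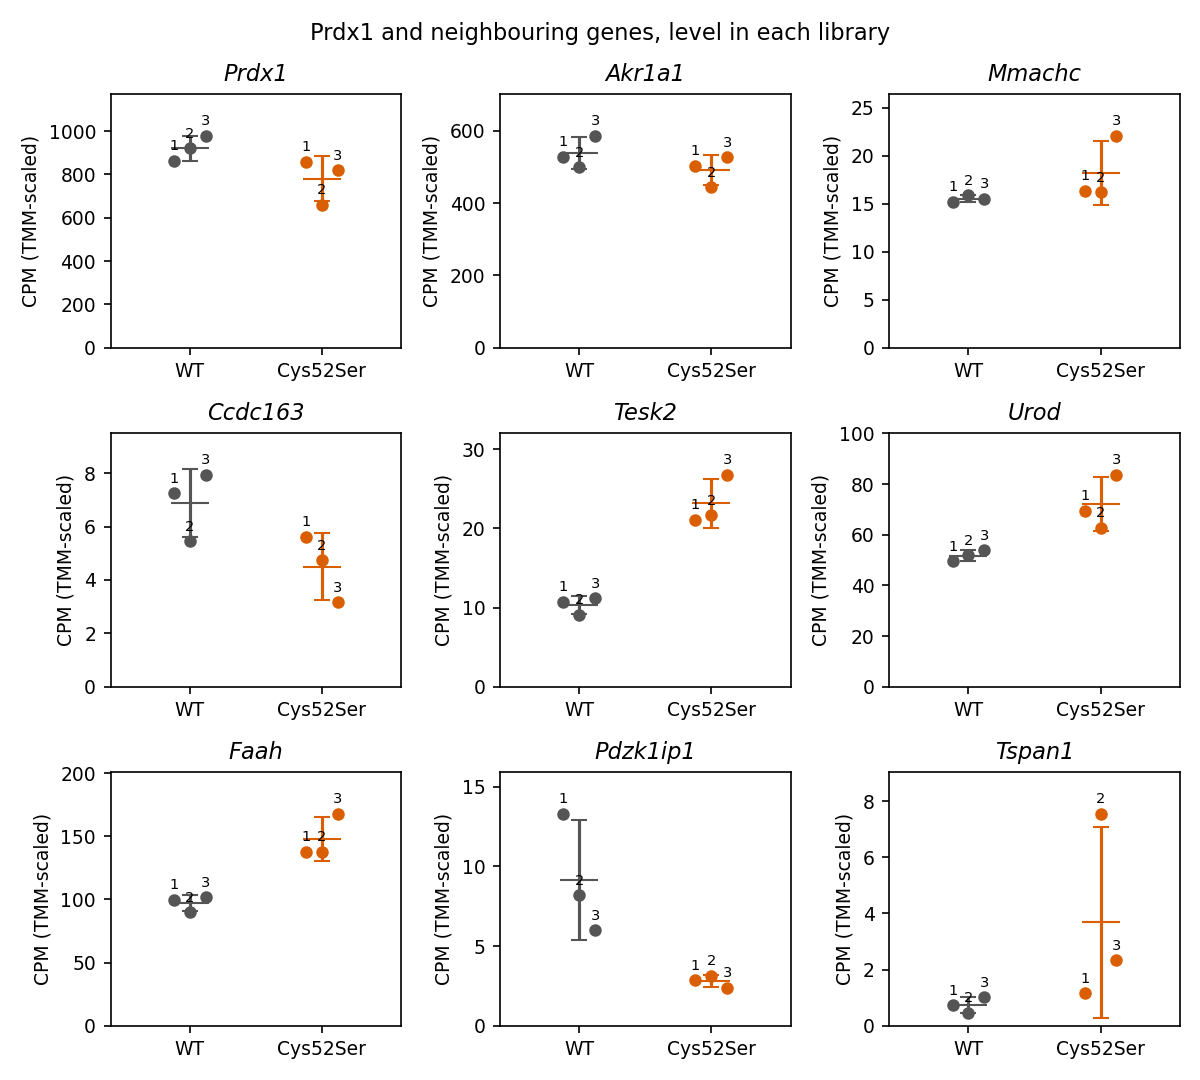
Level in CPM of Prdx1 and 8 neighbours in each library, WT in grey and Cys52Ser in orange, with the replicate number above each point, the mean as a line and 1 SD as error bars. For Tesk2 the 3 Cys52Ser libraries sit between 21.1 and 26.8 CPM, all above the WT libraries, whereas Akr1a1 and Ccdc163 overlap between genotypes.

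The nearest gene on each side of Prdx1, Mmachc and Akr1a1, gave a small difference with TMM scaling. Ccdc163 and Tesk2, the next genes beyond Mmachc, had the larger values given above. Mmachc (ENSMUSG00000028690), which processes vitamin B12 inside the cell, ends 1.457 kb from the end of Prdx1, the genes facing each other tail to tail. Its levels were 15.2, 15.9 and 15.5 CPM in WT and 16.4, 16.2 and 22.0 CPM in Cys52Ser. The groups did not overlap, but Cys52Ser replicates 1 and 2 lay just above WT and only replicate 3 stood apart. Its log2 fold change was 0.23 (-0.12 to 0.58, edgeR adjusted p = 0.424), and with library totals it was -0.13. The promoter of Mmachc printed above shares 291 of its 300 bases with that of Ccdc163, which starts 102 bases away in the other direction, and the log2 fold changes of this pair had opposite signs with TMM and were both negative with library totals (-0.13 and -0.94).

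On the other side of Prdx1, Akr1a1, an aldehyde reductase and one of the enzymes of vitamin C synthesis in mice, is the nearest gene, 33.9 kb away and read from the opposite strand. It is also the neighbour with the highest level per length, at 195 FPKM in WT and 140 FPKM in Cys52Ser. Its counts gave 528, 500 and 586 CPM in WT and 503, 444 and 527 CPM in Cys52Ser. The groups overlapped and the log2 fold change was -0.13 (-0.45 to 0.19, edgeR adjusted p = 0.646), but with library totals it was -0.48 and passed the test (adjusted p = 0.0224).

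Nasp, a histone chaperone 57.6 kb from Prdx1, averaged 16.7 ± 0.32 CPM in WT, against 19.9 ± 1.75 CPM in the mutants (SD, n = 3 each). Its groups did not overlap, and its log2 fold change of 0.25 (-0.01 to 0.51) missed the threshold (edgeR adjusted p = 0.246) and became -0.11 with library totals. Ccdc17 (-0.36, adjusted p = 0.401) and Gpbp1l1 (-0.04, adjusted p = 0.867) follow on that side. In Ccdc17 every Cys52Ser library was below every WT library. Of the exon bases of Ccdc17 33.1%, and of those of Gpbp1l1 5.15%, are also exon of C530005A16Rik on the opposite strand. Reads in these shared bases are uncertain. Beyond Tesk2 lies Mutyh, the glycosylase that removes adenine mispaired with oxidized guanine, with a log2 fold change of -0.47 and a wide interval (-1.61 to 0.68, edgeR adjusted p = 0.638). Among the 8 tested genes nearest to Prdx1, 4 on each side, Tesk2 alone passed the test with TMM scaling.

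Faah (ENSMUSG00000034171, chr4:115967145-116017727, minus strand) lies 668 kb from Prdx1. Its level was 99.9, 89.8 and 102 CPM in WT and 138, 138 and 168 CPM in Cys52Ser. All Cys52Ser libraries were above all WT libraries. The means were 97.1 ± 6.36 and 148 ± 17.3 CPM (SD, n = 3 each), with a log2 fold change of 0.61 (SE 0.12, 95% confidence interval 0.32 to 0.90) and an edgeR adjusted p of 0.0416, at rank 652. Faah was the called neighbour just inside the threshold. With library totals its log2 fold change was 0.25 (adjusted p = 0.128), and the call was lost in 11 of 18 alternatives, among them the omission of any single library (0.50 to 0.66, adjusted p = 0.0580 to 0.128). Hepatocyte and endothelial markers were higher in the same libraries, with the sums given above. Their part in the Faah difference was not tested.

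Urod, an enzyme of haem synthesis 289 kb from Prdx1, was just outside the threshold. It had 49.4, 51.96 and 53.8 CPM in WT and 69.5, 62.8 and 83.6 CPM in Cys52Ser. The groups did not overlap, and the log2 fold change was 0.48 (0.19 to 0.77). The edgeR adjusted p was 0.0744 and that of DESeq2 was 0.0183, and with library totals the log2 fold change was 0.12 (edgeR adjusted p = 0.388).

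Pdzk1ip1 (ENSMUSG00000028716, chr4:115088708-115093899, plus strand) is 1592 kb from Prdx1. Its level was 13.3, 8.19 and 5.996 CPM in WT and 2.86, 3.15 and 2.37 CPM in Cys52Ser. The WT libraries spread more than 2-fold among themselves, and all 3 were above every Cys52Ser library. The log2 fold change was -1.71 (SE 0.32, 95% confidence interval -2.45 to -0.97; edgeR adjusted p = 0.0338), at rank 456. Its FPKM was 5.23 in WT and 1.22 in Cys52Ser, and with library totals the log2 fold change was -2.08 (adjusted p = 0.0208). The call was made in 13 of 18 alternatives and lost in 5 of the 6 fits that leave out 1 library, all but the one without WT replicate 3 (over the 6, -1.39 to -1.996, adjusted p = 0.0326 to 0.121). In the same libraries the summed cholangiocyte markers were 1357, 731 and 637 CPM in WT and 184, 547 and 149 CPM in Cys52Ser, with 2 of 10 genes called lower. The cholangiocyte, stellate cell and macrophage sums were each highest in WT replicate 1, as Pdzk1ip1 was. Spp1 is in both the cholangiocyte and the macrophage list. The part of these markers in the Pdzk1ip1 difference was not tested.

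Tspan1, a tetraspanin of epithelial membranes, had the largest positive log2 fold change among the neighbours without passing the test. It had 0.734, 0.460 and 1.02 CPM in WT and 1.15, 7.55 and 2.34 CPM in Cys52Ser. Cys52Ser replicate 2 stood far above the others, although no Cys52Ser library fell below a WT library. The log2 fold change of 2.31 had an interval from 0.61 to 4.01 (edgeR adjusted p = 0.115; DESeq2 adjusted p = 0.00319), and without Cys52Ser replicate 2 it was 1.23. The same library was the highest for Rad54l, a protein of recombination repair (3.20, 6.76 and 4.69 CPM in Cys52Ser), and for Kif2c, a mitotic kinesin (1.42, 4.33 and 1.67 CPM). Summed markers of dividing cells were 137 CPM in that library, 64.7 and 58.2 CPM in Cys52Ser replicates 1 and 3 and 73.4 to 84.2 CPM in WT. Summed cholangiocyte markers were 547 CPM in that library, 184 and 149 CPM in Cys52Ser replicates 1 and 3 and 637 to 1357 CPM in WT. The part of either marker list was not tested.

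By function, the 9 enzymes of metabolism and mitochondria were all tested. Faah rose, where 2.52% of all tested genes were called higher, and the other 8 did not pass. Their median log2 fold change was 0.23 beside -0.00 over all tested genes, and 8 of 9 values were positive, a count that became 4 of 9 with library totals, where 8 of 9 were still above the all-gene median. Besides Faah, Urod, Mmachc and Akr1a1 the list holds Cmpk1, a pyrimidine nucleotide kinase (0.06, adjusted p = 0.816), Nsun4, a methyltransferase of mitochondrial ribosomal RNA (0.22, adjusted p = 0.408), and Atpaf1, an assembly factor of the mitochondrial ATP synthase (0.04, adjusted p = 0.910). Uqcrh, a subunit of respiratory complex III that the rule leaves out, had 70.5, 87.8 and 102 CPM in WT and 108, 90.9 and 111 CPM in Cys52Ser. Its groups overlapped and its log2 fold change was 0.25 (-0.12 to 0.62, edgeR adjusted p = 0.402).

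Of the 7 kinases and signalling genes 1 rose, Tesk2 (2.52% of all tested genes were called higher), and the median was -0.17. Mast2, a microtubule-associated kinase, had -0.30 (adjusted p = 0.235), Mknk1, a kinase of the translation factor eIF4E, -0.17 (adjusted p = 0.521), and Pik3r3, a regulatory subunit of phosphoinositide 3-kinase, -0.47 (adjusted p = 0.287). The 8 tested genes of glycosylation, transport and membranes held 1 call, Pdzk1ip1, which fell (2.46% of all tested genes were called lower), with a median of 0.17. With 1 call in each, neither list can be read against such a share. In that list St3gal3, a sialyltransferase, had 0.29 (adjusted p = 0.365), Slc6a9, a glycine transporter, 0.40 (adjusted p = 0.309), Tmem53 0.38 (adjusted p = 0.230) and Atp6v0b, a subunit of the vacuolar proton pump, -0.13 (adjusted p = 0.561). No other list held a called gene. All adjusted p-values in these lists come from the same edgeR fit.

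The 6 tested genes of DNA replication, repair and cell division had a median log2 fold change of 0.01 and ranged from -0.63 for Plk3 to 0.61 for Rad54l. Stil, also of this function but left out by gene type, had 0.003 (edgeR adjusted p = 0.998). Plk3, a stress-responsive polo-like kinase, had 52.95, 223 and 253 CPM in WT and 66.1, 118 and 158 CPM in Cys52Ser. Replicate 1 was the lowest of each genotype and the groups overlapped widely (edgeR adjusted p = 0.609). The value for Kif2c was 0.31 (adjusted p = 0.770). The 5 genes of translation and RNA processing had a median of 0.11 and no call. Eif2b3, a subunit of a translation initiation factor, had 0.22 (adjusted p = 0.494), Dph2, an enzyme of diphthamide synthesis, 0.13 (adjusted p = 0.763) and the exonuclease gene Eri3 0.11 (adjusted p = 0.623).

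The 6 genes of ubiquitin ligases and BTB or SWIM proteins had a median of 0.09, from -0.60 for Btbd19 to 0.23 for Zswim5. Of 7 transcription factor, chromatin and nuclear import genes 4 were tested, and their median was -0.04. Tal1, a transcription factor of blood cells, had -0.03 (edgeR adjusted p = 0.972), the histone demethylase gene Kdm4a 0.12 (adjusted p = 0.561) and the import receptor gene Ipo13 -0.06 (adjusted p = 0.886). The 5 tested coiled-coil and little-described genes had the lowest median, -0.42, with 4 of 5 values negative and 0 calls. Ccdc24, which overlaps B4galt2 and Slc6a9, had -1.03 with an interval from -2.11 to 0.05 (edgeR adjusted p = 0.244), and its reads are uncertain for that reason. Lurap1, in no list, had -0.42 (adjusted p = 0.728).

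Too few reads were counted for 6 neighbours. Over all 6 libraries Foxd2 had 66 counts, 31 in WT and 35 in Cys52Ser, and Tex38 had 23, 19 and 4. Dmbx1 and Klf17 had 6 each and Armh1 4, all in WT, and Gm12845 had 3, all in Cys52Ser. At these counts no difference could be detected. Foxd2, Dmbx1 and Klf17 encode transcription factors, so 3 of the 7 genes of that list were not measurable.

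**Figure D3:**
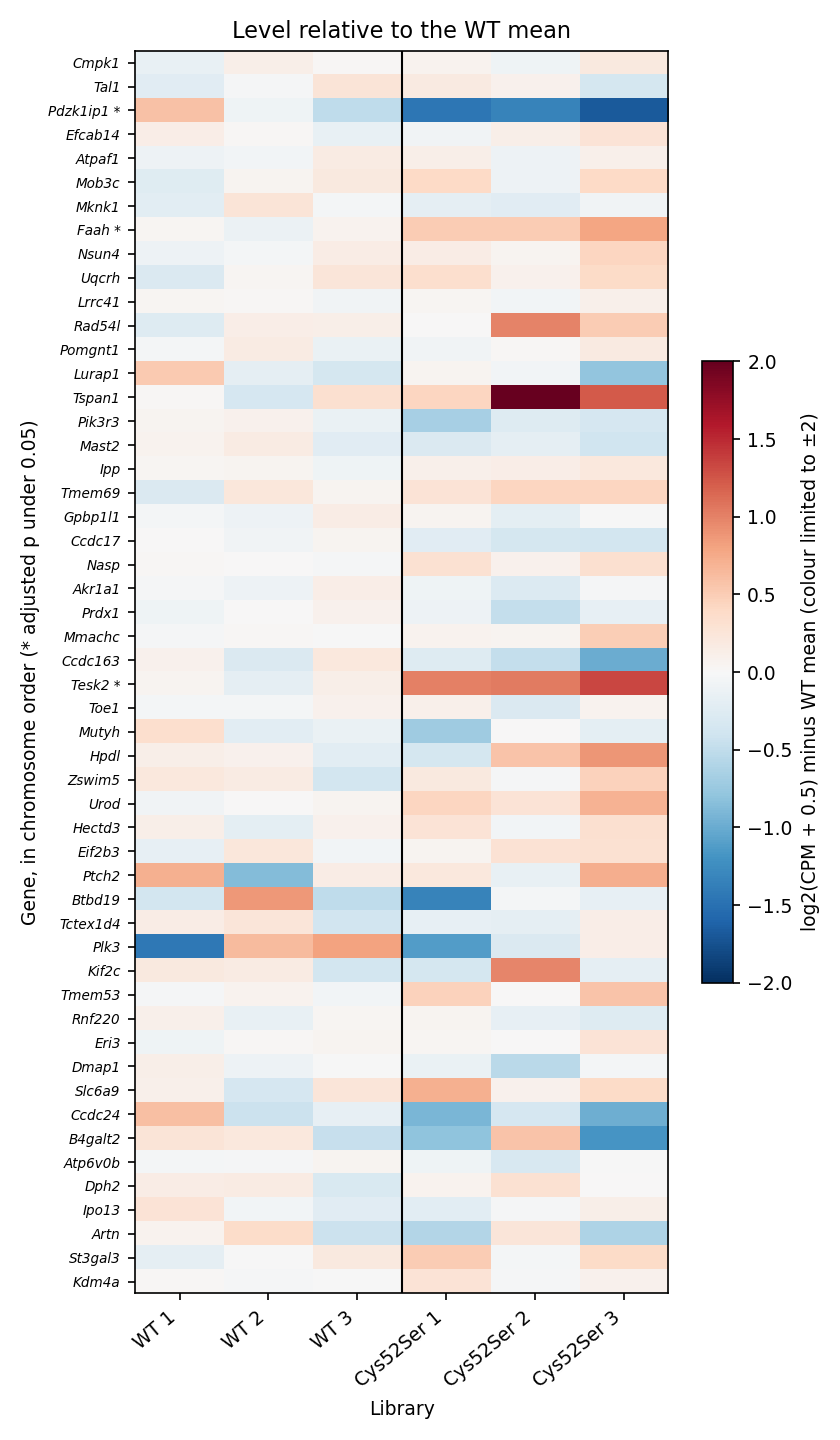
Level of tested neighbours, Prdx1 and Uqcrh in chromosome order (rows) in each library (columns), as log2(CPM + 0.5) minus the WT mean, with colours limited to ±2. The called genes are starred: Tesk2 and Faah are red and Pdzk1ip1 blue in all 3 Cys52Ser libraries, while the rows around them are mostly pale.

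Over all 51 tested neighbours the log2 fold changes ran from -1.71 to 2.31, with a median of 0.04 and with 28 positive and 23 negative, a split that moved to 9 positive of 51 with library totals. The median size regardless of direction was 0.25, beside 0.31 over all tested genes, 0.28 over protein-coding genes and 0.29 over the rest of chromosome 4. A change of 2-fold or more was seen in 5 neighbours (9.80%), beside 12.4% of all tested genes, 11.3% of protein-coding genes and 12.1% of those on the rest of chromosome 4. An unadjusted p under 0.05 was reached by 5 (9.80%), beside 22.4% of all tested genes, 25.1% of protein-coding genes and 25.4% of those on the rest of chromosome 4. The WT and Cys52Ser libraries did not overlap in 11 neighbours (21.6%), beside 29.7% of all tested genes, 31.7% of protein-coding genes and 33.3% of the rest of chromosome 4. By each of these counts the neighbours were not above the background. As a list they were described and not tested.

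**Figure D4:**
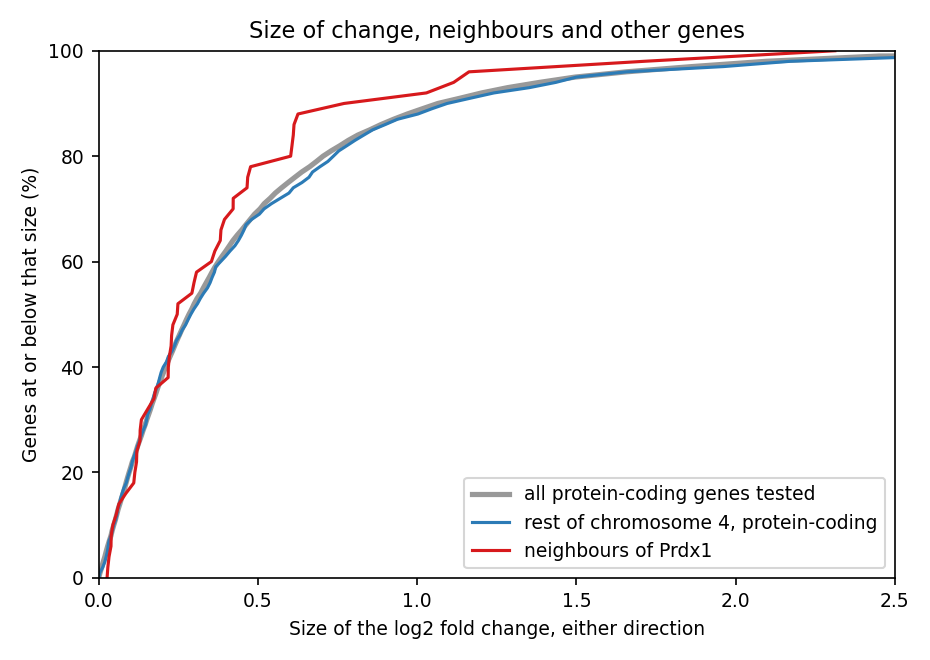
Cumulative share of genes, in percent, at or below a given size of log2 fold change in either direction, for the neighbours of Prdx1, for the tested protein-coding genes of the rest of chromosome 4 and for all tested protein-coding genes. The neighbours' curve runs along the others up to about its median of 0.25 and above them beyond it, with fewer large changes.

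Other ways of testing gave other counts, set here beside the share of all genes each called. With edgeR, 3 neighbours were called in each of the next fits. They were 5.88% under relative log expression scaling (background 5.17%), upper quartile scaling (5.54%), a non-robust fit (4.39%) and a replicate block (3.91%). They were 5.26% without a count filter (3.24%) and 6.52% with a mean CPM of at least 1 (8.06%). DESeq2 called 5 of 48 neighbours, 10.4% beside a background of 15.3%, adding Urod and Tspan1. With limma on log2(FPKM + 0.5), log2(FPKM + 0.1) and log2(FPKM + 1), 7, 8 and 7 were called (13.7%, 15.7% and 13.7%) beside backgrounds of 15.2%, 15.7% and 14.5%. On log2(FPKM + 0.5) without a filter on low values 4 were called, 7.02% beside 4.42%. There the median size of change was 0.21, beside 0.17 over all genes. Leaving out WT replicate 1, 2 or 3 left 1, 0 and 2 called (backgrounds 2.15%, 0.295% and 4.06%), and leaving out Cys52Ser replicate 1, 2 or 3 left 0, 1 and 0 (0.161%, 2.60% and 0.145%).

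The level of a gene sets how easily it is called, and the neighbours were near the middle: their median was 3.28 FPKM, and that of protein-coding genes 2.81 FPKM. Of the 8 neighbours with a mean of at least 10 FPKM 1 was called, where 9.84% of protein-coding genes at that level were, and the median size of change was 0.21 beside 0.26. From 1 to under 10 FPKM 2 of 29 were called (6.90%, background 6.18%), and the median size of change was 0.22 in both sets. Under 1 FPKM edgeR called 0 of 14 (background 2.10%), 1 of them at an unadjusted p under 0.05, with a median size of 0.44 beside 0.49. At each level the neighbours' sizes of change were therefore close to those of other genes.

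By distance from Prdx1 each range held 1 called neighbour, too few to read against the 4.98% called over all tested genes. Within 0.5 Mb 1 of 24 tested neighbours was called (4.17%), from 0.5 to 1 Mb 1 of 15 (6.67%), and beyond 1 Mb 1 of 12 (8.33%), and the median sizes of change were 0.30, 0.22 and 0.21. In the same order the genotypes did not overlap in 8 (33.3%), 2 (13.3%) and 1 (8.33%), beside 29.7% of all tested genes. An unadjusted p under 0.05 was reached by 2 (8.33%), 2 (13.3%) and 1 (8.33%), beside 22.4%. At lower coordinates than Prdx1 2 of 22 were called (9.09%) and at higher coordinates 1 of 29 (3.45%), against the same 4.98%. The genotypes did not overlap in 8 (36.4%) and 3 (10.3%) of these. Differences by distance and side were not tested. Among the 32 neighbours that overlap no other annotated gene 2 were called (6.25%), Faah and Pdzk1ip1. The next 3.5 Mb at higher coordinates held 36 tested protein-coding genes and 0 calls, with 4 (11.1%) at an unadjusted p under 0.05, 7 (19.4%) without overlap between the genotypes, 2 (5.56%) changed by 2-fold or more and a median size of 0.23. The 3.5 Mb at lower coordinates held 5 tested genes, too few to compare.

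Genes that start back to back share a promoter region. Within 1000 bases the window held 6 such pairs of protein-coding genes, and in 5 both genes were tested. In 4 of the 5 both log2 fold changes had the same sign with TMM, and in 3 of the 5 with library totals. Neither gene of any pair passed the test. With TMM 49.7% of all tested genes had a positive value, and with library totals 9 of 51 neighbours did. The share among pairs elsewhere was not computed, so these counts are not read as a shared change. Urod and Hectd3, a ubiquitin ligase, start 903 bases apart and had 0.48 and 0.18. Rad54l and Pomgnt1, a glycosyltransferase of dystroglycan, start 149 bases apart and had 0.61 and 0.04. Mmachc and Ccdc163 were the pair of opposite sign with TMM. Armh1 and Tmem53 start 33 bases apart, and Armh1, with 4 counts, was not tested.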

How the data were processed

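Liver mRNA of 6 mice was sequenced as paired reads from a strand-marked library with molecular identifiers, per the labels' protocols. The authors deposited 1 table with whole-number estimated counts and FPKM per gene and library. Tools listed, without roles, in the submitters' processing notes are HISAT2 2.0.4 and StringTie 1.3.4d, then cutadapt 1.9 and UMI-tools, besides edgeR and DESeq2, and the build listed is mm9. The coordinates, however, match GENCODE M21 on GRCm38: 24753 of 28524 genes found there (86.8%) have identical start and end, as have 48 of the 57 neighbours (84.2%), so positions are given on GRCm38.

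The deposited estimated counts were whole numbers and were used as they stand. Genes were filtered with edgeR's filterByExpr (minimum count 10), scaled by TMM and tested with the robust quasi-likelihood test of edgeR 4.0.16 in R 4.3.3 on genotype alone, with Benjamini-Hochberg adjustment over 18648 genes. Single genes also got an exact two-sided permutation test on log2(CPM + 0.5). Signs are Cys52Ser minus WT. The labels give 3 mice per genotype as separate animals. DESeq2 1.42.0, limma 3.58.1 on log2(FPKM + 0.5), other scalings, filters and pseudocounts, a replicate block and the omission of each library were alternatives. The fit was tested on simulated data. Replicate numbers did not pair the libraries. The members and lists were chosen with earlier results of these data known. Genes named were the called ones, the 4 tested on each side nearest to Prdx1, the 10 with the smallest p, the 6 with the highest FPKM, 11 chosen by name, the untested ones and those just inside and outside the threshold. Further genes were named to fill out the lists by function, with their values in view. The values of 1 neighbour are not reported here.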

Additional observations from a re-analysis of the deposited data

How the results depend on the processing

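The number of neighbours called was 3 under relative log expression or upper quartile scaling, without a count filter, with a mean CPM of at least 1 and in a non-robust fit. It was 7 with library totals, 5 with DESeq2 (of 48 with an adjusted p, 10.4% beside 15.3% of all genes), 7, 8 and 7 with limma on FPKM + 0.5, + 0.1 and + 1, and 0 to 2 when 1 library was left out. The count was 0 in 3 of those edgeR fits, the ones lacking the second WT, the first Cys52Ser or the third Cys52Ser library, where 7, 8 and 5 neighbours had an unadjusted p under 0.05. The replicate block gave 3 neighbours and 729 genes (3.91%). Same-numbered libraries correlated at 0.0051, 0.166 and 0.0642 in their deviations, so the numbers were not taken as pairs. The neighbours' median log2 fold change was -0.311 with library totals, -0.206, -0.296 and -0.173 with limma at those pseudocounts and -0.173 without a filter. Their median size was 0.355 with library totals and 0.201 to 0.33 over the omissions of 1 library. Prdx1 passed the test at -0.594 with library totals and at -0.595, -0.596, -0.593 and -0.595 in the 4 limma fits. Uqcrh turned to -0.092, -0.084, -0.084, -0.083 and -0.084 in the same 5 fits, in that order. In those fits Cmpk1 turned to -0.292, -0.281, -0.285, -0.276 and -0.281, Mmachc to -0.134, -0.124, -0.132, -0.116 and -0.124, Nasp to -0.11, -0.086, -0.101, -0.073 and -0.086, St3gal3 to -0.06, -0.065, -0.066, -0.064 and -0.065, and Kif2c to -0.018, -0.045, -0.125, -0.021 and -0.045. These 5 fits do not apply TMM, and the all-gene median was negative in each. With 1 library left out Cmpk1 ranged from -0.06 to 0.133, Gpbp1l1 from -0.149 to 0.027, Kif2c from -0.37 to 0.585, Tal1 from -0.212 to 0.154 and Toe1 from -0.102 to 0.092, all without passing the test, and the cause was not tested. The 14 neighbours under 1 FPKM had a median SE of 0.53 on the log2 scale, beside 0.17 over all 51 tested.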
